A study of Mus musculus with 4 samples.

Results

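Metallothioneins and zinc transporters were followed in mouse small intestinal organoids and in the crypts from which they were grown. They were taken as 9 genes, looked up by the arrays' own gene names among non-control spots: Mt1, Mt2, Mt3, Mt4, Mtf1, Slc30a1, Slc30a10, Slc39a4 and Slc39a5. These 9 genes had 13 of the array's 41174 probes. Named by RefSeq symbol where the accession matched (24844 probes) and otherwise by the files' name, all probes gave 28632 names. Counts of all genes below are counts of such names, unnamed transcripts included. Crypts of each of 2 mice had been divided, so that organoids cultured for 1 week and crypts whose RNA was taken directly came from the same animal (n = 2 mice). The organoids grew in Matrigel, and their medium held EGF at 10 to 50 ng/ml, Noggin at 100 ng/ml and R-spondin at 500 ng/ml. Both groups had first been through 30 min in 2 mM EDTA, a chelator of divalent metals, and a 70 µm strainer. Strain, sex, age and genotype of the mice are not given in the sources used here. Organoid and crypt RNA of a mouse were hybridised together on 2 two-colour arrays of opposite dye orientation, which are technical repeats and were averaged.

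Metallothioneins are small, cysteine-rich proteins that bind zinc, copper and cadmium in the cytosol. When free zinc rises, the zinc-finger factor MTF1 binds metal response elements and switches on Mt1, Mt2 and the zinc exporter gene Slc30a1. ZIP proteins (Slc39) carry zinc into the cytosol and ZnT proteins (Slc30) carry it out. In the small intestine ZIP4 (Slc39a4) takes up dietary zinc at the apical membrane of enterocytes, and rodent Paneth cells are known for their zinc and metallothionein.

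The probes of Mt1 and Mt4 were read for cysteine codons, the trait that gives the family its metal binding. Of the frames without a stop codon, the one with the most cysteine codons was taken. The counts are thus the highest of those frames, and the frame was not checked against the protein. Written 5′ to 3′, with the cysteine codons TGC and TGT of that frame in capitals, the probes read as follows.
Mt1, A_51_P294979: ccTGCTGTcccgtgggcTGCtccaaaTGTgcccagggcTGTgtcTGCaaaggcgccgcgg
Mt4, A_51_P424272: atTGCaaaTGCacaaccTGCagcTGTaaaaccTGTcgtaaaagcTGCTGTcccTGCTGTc
Mt4, A_51_P424275: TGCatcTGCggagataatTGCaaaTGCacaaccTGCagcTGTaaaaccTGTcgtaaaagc
In the frame so chosen, cysteine took 6 of 19 whole codons in the Mt1 probe, 9 of 19 in the first Mt4 probe and 7 of 20 in the second. The Mt4 probes overlap each other by 44 bases. Their longest runs shared with the Mt1 probe are 10 and 6 bases, and the Mt1 and Mt2 probes share no run longer than 5.
In mm9, per the files, the Mt1 probe lies at chr8:96704011-96704070 and the Mt2 probe at chr8:96697371-96697430, both on the plus strand. Probes of all 4 metallothionein genes lie on that strand within 41.9 kb.

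Promoters were searched for the core of the metal response element, because MTF1 acts through it. The letters TGCACNC or TGCGCNC were sought on both strands, with overlapping matches counted as 1 site, from 250 bases before to 50 after RefSeq's start. The 3 windows below are RefSeq's (GRCm38.p6, plus strand), with matches in capitals. They are shown because they belong to the genes best known as MTF1 targets.
Mt1, chr8:94178839-94179138: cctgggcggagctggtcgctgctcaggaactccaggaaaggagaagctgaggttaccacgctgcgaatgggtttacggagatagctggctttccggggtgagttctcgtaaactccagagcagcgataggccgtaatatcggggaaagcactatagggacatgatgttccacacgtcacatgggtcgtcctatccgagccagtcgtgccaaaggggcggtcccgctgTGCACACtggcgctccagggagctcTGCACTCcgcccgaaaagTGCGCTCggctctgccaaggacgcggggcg
Mt2, chr8:94172368-94172667: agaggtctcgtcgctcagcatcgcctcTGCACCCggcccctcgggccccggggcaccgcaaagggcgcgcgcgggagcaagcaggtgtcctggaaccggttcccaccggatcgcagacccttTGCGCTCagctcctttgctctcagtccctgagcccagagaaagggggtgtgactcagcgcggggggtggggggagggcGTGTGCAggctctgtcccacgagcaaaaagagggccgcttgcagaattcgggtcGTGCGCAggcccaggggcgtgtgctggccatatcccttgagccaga
Slc30a1, chr1:191906531-191906830: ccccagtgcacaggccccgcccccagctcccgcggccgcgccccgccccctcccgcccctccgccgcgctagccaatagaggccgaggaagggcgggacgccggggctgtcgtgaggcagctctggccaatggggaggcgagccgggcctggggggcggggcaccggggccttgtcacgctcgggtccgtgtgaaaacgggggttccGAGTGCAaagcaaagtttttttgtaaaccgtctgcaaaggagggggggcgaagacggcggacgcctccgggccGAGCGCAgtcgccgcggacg
The Mt2 window held 4 sites, the Mt1 window 3, and the Slc30a1 window 2. Of 32851 windows in the same table, 0.295% held at least 4 sites, 1.31% at least 3, 6.14% at least 2 and 25.7% at least 1. These shares were not matched for GC content, which was 67.7% in the Mt2 window, 60.7% in Mt1 and 73.0% in Slc30a1. Whether the counts exceed those of windows of like GC content was not tested. Slc30a10 had 2 sites, Mt3 and Mt4 had 1 each, and Mtf1 had 0. Slc39a5 has 2 windows, with 1 site in one and 0 in the other. A window was at hand for 8 of the 9 genes, and Slc39a4 was not examined. A match describes letters only, and RefSeq's start need not be the one used in these tissues.

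**Figure D1:**
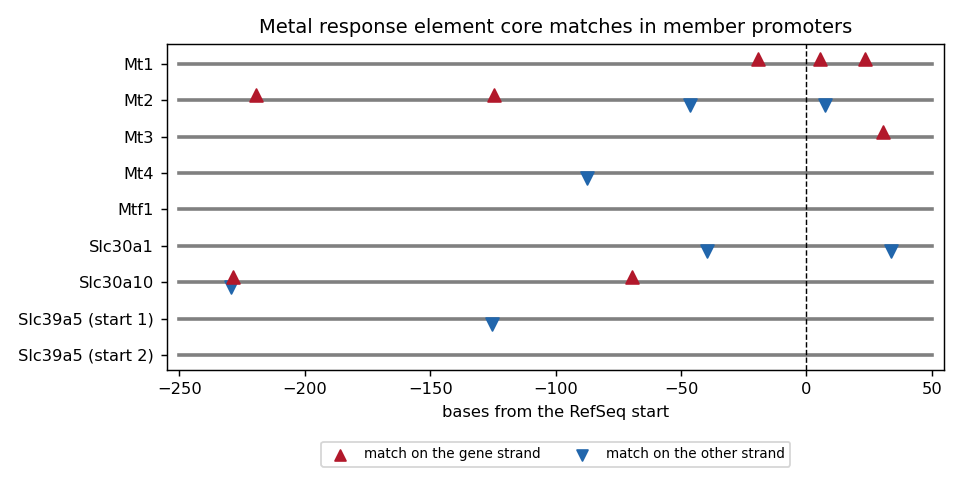
Positions of metal response element core matches in the promoter windows of 8 genes, in bases from RefSeq's start (dashed line). Triangles pointing up are matches on the gene's strand and triangles pointing down are on the other strand; Mt2 has 4 sites, Mt1 3 and Slc30a1 2, and overlapping matches (Slc30a10, far left) count as 1 site.

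Of the 13 probes, 12 were bright enough to be tested. In limma's fit over all 21916 tested probes, 4 of them were higher in organoids, those of Mt1, Mt2 and both of Mt4, and 1, that of Slc39a4, was lower (Benjamini-Hochberg adjusted p under 0.05). One of the Mt4 probes, A_51_P424275, was well above background in 0 of 4 crypt channels and so entered the test only through the organoids. Over all probes the test called 4.5% higher and 4.8% lower, and 9.3% in either direction. The other 7 tested probes did not pass. Mt1 and Mt2 were at least 2-fold higher in both mice, against 1.35% of all probes, and Slc39a4 was at least 2-fold lower in both, against 2.02%. With 1 probe per gene, the brightest, 3 of 9 genes were higher and 1 lower, and the median gene stood at -0.31 on the log2 scale. Over all 15534 genes tested, 5.25% were higher and 5.36% lower, with a median log2 ratio of 0.02. Ratios below are log2 organoid over crypt, given as the mean of 2 mice ± SD. Levels are log2 channel values, comparable between samples for 1 probe and not between probes. Where levels are said not to overlap, this describes 2 organoid values against 2 crypt values. The share of all tested probes without overlap, or with 1 sign on all 4 arrays, was not counted. Lack of overlap was not confined to probes that passed. It also held for Mt3, Slc39a5, the tested Mtf1 probe and Slc30a1 A_51_P300572, which did not pass.

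**Figure D2:**
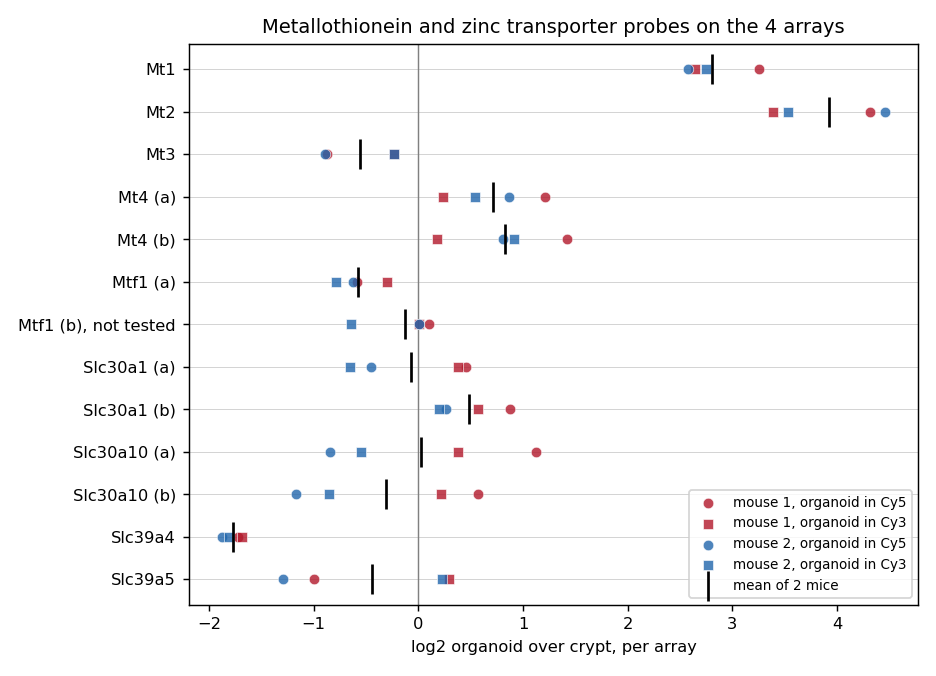
Log2 organoid over crypt on each of the 4 arrays for the 13 probes; red is mouse 1, blue mouse 2, circles have the organoid in Cy5 and squares in Cy3, and the bar is the mean of the 2 mice. Where a gene has 2 probes, (a) and (b) are A_51_P424272 and A_51_P424275 for Mt4, A_52_P236072 and A_52_P55666 for Mtf1, A_51_P250378 and A_51_P300572 for Slc30a1, and A_51_P173445 and A_52_P883557 for Slc30a10. Mt1 and Mt2 lie above 2.5 and Slc39a4 below -1.6 on all 4 arrays, while both Slc30a10 probes lie above 0 in mouse 1 and below 0 in mouse 2.

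Mt2, a ubiquitous metallothionein, was higher in the organoids of both mice. Its level was 17.52 and 17.40 in the organoids of mouse 1 and mouse 2, against 13.67 and 13.41 in their crypts. Organoids and crypts did not overlap, and the mice were alike in both. The ratio was 4.32 with the organoid in Cy5 and 3.39 with it in Cy3 in mouse 1, and 4.46 and 3.53 in mouse 2. In both mice the Cy5 array gave the larger value. Mt2 was 15.2-fold higher in organoids (3.92 ± 0.10, n = 2 mice, limma adjusted p = 0.00122). Its ratio was the 4th highest among all tested probes.

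Mt1, its neighbour and the other widely expressed metallothionein, moved the same way. The level was 16.52 and 16.11 in organoids of mouse 1 and mouse 2, against 13.57 and 13.45 in crypts. Here too the groups did not overlap. The array ratios were 3.25 and 2.64 in mouse 1 and 2.58 and 2.75 in mouse 2, so the dyes did not order them the same way in both animals. Mt1 was 6.98-fold higher in organoids (2.80 ± 0.20, n = 2 mice, limma adjusted p = 0.00158), the 18th highest ratio of all tested probes. The array carries this probe in 10 spots, whose ratios had an SD of 0.03 to 0.06 within an array. Mt1 and Mt2 kept direction and call under all alternatives with a test, and direction without either mouse.

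A further probe lies close by, at chr8:96703844-96703903 (mm9), and is named ENSMUST00000062980 in the files, which describe it as metallothionein-1. It falls outside the gene name rule and was singled out after its values were seen. Its level was 12.88 and 11.93 in organoids, against 10.44 and 10.74 in crypts. It was higher in both mice, by 2.44 in mouse 1 and 1.18 in mouse 2 (1.81 ± 0.89, n = 2, limma adjusted p = 0.0262).

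Mt4, known from stratified squamous epithelia, gave weak signals here. On its first probe the spot signals were 239.8 to 652 in organoid channels and 192 to 381 in crypt channels, and on its second 174 to 407 and 124 to 214. Local backgrounds at these spots were 57 to 149, so both probes were dim in both tissues. The first probe had levels of 8.84 and 8.64 in organoids, against 8.11 and 7.94 in crypts. Its array ratios were 1.21 and 0.24 in mouse 1 and 0.87 and 0.54 in mouse 2 (0.71 ± 0.02, limma adjusted p = 0.0321). The second had levels of 8.24 and 7.88 in organoids, against 7.44 and 7.01 in crypts. Its array ratios were 1.42 and 0.18 in mouse 1 and 0.81 and 0.92 in mouse 2 (0.83 ± 0.04, limma adjusted p = 0.0216). All array ratios were above 0. With the second probe dim in crypts, its fold was also taken against a floor. The organoid mean was set against the higher of the crypt value and the lowest signal called above background. This gave 1.65-fold, which is not a lower limit. The array of mouse 1 with the organoid in Cy3 gave a smaller log2 ratio, 0.18. Neither Mt4 probe passed after median centring (adjusted p = 0.338 and 0.275), with no filter on dim probes (0.0581 and 0.0508), or on the arrays with the organoid in Cy3 alone (0.213 and 0.236), nor did the first without background correction (0.0509). The scanner software's own ratios averaged 1.33 and 3.71, well above the values given here. Over all alternatives the adjusted p was 0.0134 to 0.338 for the first probe and 0.00511 to 0.275 for the second. Signal shared with other metallothionein transcripts was not tested.

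Mt3, known as the brain metallothionein, did not pass. Its level was 10.21 and 10.15 in organoids, against 10.76 and 10.72 in crypts. The array ratios were -0.87 and -0.23 in mouse 1 and -0.90 and -0.23 in mouse 2. The values were below 0 on all 4 arrays, and smaller in size with the organoid in Cy3 (-0.56 ± 0.01, limma adjusted p = 0.0618, 95% interval -0.88 to -0.23). On the arrays with the organoid in Cy5 alone, where the dye does not cancel, it passed as lower (-0.88, adjusted p = 0.0346). It also passed with the 4 arrays taken as replicates with a dye effect (adjusted p = 0.0120), which counts technical repeats as replicates. Over the alternatives the adjusted p was 0.0120 to 0.918.

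Mtf1, the gene of the metal-sensing factor itself, did not pass either. Its brighter probe had a level of 9.58 and 9.41 in organoids, against 10.02 and 10.11 in crypts. The ratio was below 0 on all 4 arrays (-0.57 ± 0.18, limma adjusted p = 0.0706). It passed as lower without background correction (adjusted p = 0.0466) and with the mouse as a random replicate block over the 4 arrays (adjusted p = 0.0181). It also passed with the 4 arrays taken as replicates with a dye effect (adjusted p = 0.0261), which counts technical repeats as replicates. Over the alternatives the adjusted p was 0.0181 to 0.886. The other probe, A_52_P55666, was well above background in 0 of 8 channels and was not tested.

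**Figure D3:**
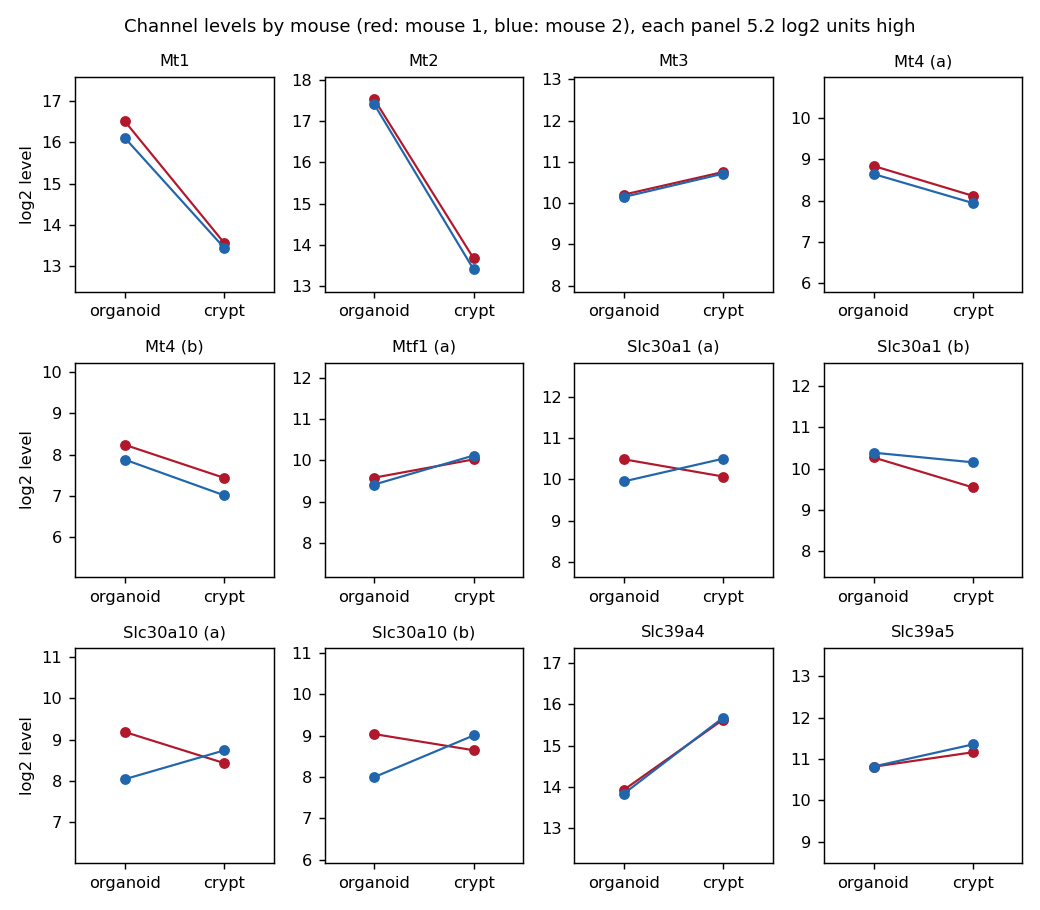
Log2 channel level of the 12 tested probes in organoids (left) and crypts (right) of mouse 1 (red) and mouse 2 (blue), after normalization of average intensity between arrays; all panels cover the same range of log2 units, centred on each probe. Lines join the 2 tissues of 1 mouse: Mt1 and Mt2 slope down to crypts, Slc39a4 slopes up, and the lines of Slc30a10 cross.

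Of the zinc exporters, Slc30a1 encodes ZnT1, which moves zinc across the plasma membrane out of the cell. Probe A_51_P250378 had a level of 10.49 and 9.95 in the organoids of mouse 1 and mouse 2, against 10.07 and 10.50 in their crypts. The ratio was above 0 on both arrays of mouse 1 (0.46 and 0.38) and below 0 on both of mouse 2 (-0.45 and -0.65). The mean was -0.07 ± 0.69 (limma adjusted p = 0.904), with a 95% interval of -0.69 to 0.56. Probe A_51_P300572 had a level of 10.27 and 10.39 in organoids, against 9.55 and 10.16 in crypts. It was above 0 on all 4 arrays, by 0.73 in mouse 1 and 0.23 in mouse 2 (0.48 ± 0.35, limma adjusted p = 0.152, 95% interval 0.06 to 0.90). The probes thus disagreed in mouse 2, and Slc30a1 did not pass with either.

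Slc30a10 encodes ZnT10, which in humans and mice is known chiefly as a manganese exporter. Probe A_51_P173445 had a level of 9.19 in the organoids of mouse 1 and 8.04 in those of mouse 2, against 8.44 and 8.74 in crypts. Its array ratios were 1.13 and 0.38 in mouse 1 and -0.84 and -0.55 in mouse 2 (mean 0.03 ± 1.03, limma adjusted p = 0.972). Probe A_52_P883557 showed the same order, with 9.04 and 7.998 in organoids, against 8.65 and 9.01 in crypts. Its array ratios were 0.57 and 0.21 in mouse 1 and -1.17 and -0.85 in mouse 2 (mean -0.31 ± 0.99, limma adjusted p = 0.628). Between animals the organoid level differed by more than the crypt level on both probes. Both probes gave weak signals, though well above background in all 4 channels of each tissue. Over the 2 probes, spot signals were 192 to 785 in organoid channels and 230 to 661 in crypt channels. Local backgrounds at these spots were 58.5 to 148.5. The animals lay on either side of 0, and the 95% intervals of the means were -0.83 to 0.89 and -1.14 to 0.53. In all, 3 of 12 probes, these and A_51_P250378 of Slc30a1, were above 0 on both arrays of mouse 1 and below 0 on both of mouse 2. Of all tested probes, 13.7% had both arrays of 1 mouse above 0 and both of the other below 0, whichever mouse was above. With the mice at least 0.9 apart, a gap chosen after these values were seen, the share was 1.81%.

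Of the zinc importers, Slc39a4 fell. The level of this ZIP4 gene was 13.93 and 13.84 in organoids of mouse 1 and mouse 2, against 15.63 and 15.68 in crypts. Organoids were below crypts in both mice with no overlap. The ratio was -1.72 and -1.68 on the arrays of mouse 1 and -1.88 and -1.81 on those of mouse 2, so the dyes hardly mattered. Slc39a4 was 3.42-fold lower in organoids (-1.77 ± 0.10, n = 2 mice, limma adjusted p = 0.0036). Its probe lies on the minus strand at chr15:76442866-76442925 in mm9. After median centring in place of loess the ratio was -1.37 with an adjusted p of 0.077, the highest of 0.000131 to 0.077 over the alternatives. That scaling moved the median of all tested probes to 0.14 on the log2 scale, which makes the change of Slc39a4 relative to it larger than -1.37 in size.

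Enterocyte markers moved with Slc39a4. Of 13 tested enterocyte genes, 11 passed as lower and 0 as higher, with a median log2 ratio of -2.03. Among them were the genes of lactase (Lct, -4.47 ± 0.06) and sucrase-isomaltase (Sis, -1.16 ± 0.07, limma adjusted p = 0.00122 and 0.00944). Fabp1 and the meprin gene Mep1a did not pass, at -0.35 ± 0.17 and -0.48 ± 0.26 (adjusted p = 0.199 and 0.125). All 9 tested Paneth cell genes were also lower, with a median of -1.90. Of 6 general epithelial genes, 1 was higher (Krt18) and 2 lower, with a median of -0.65. In bulk RNA, fewer cells of a type and less RNA per cell cannot be told apart, and the part of cell makeup in the change of Slc39a4 was not tested.

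Slc39a5 encodes ZIP5, a basolateral zinc importer of the gut and pancreas. Its level was 10.81 and 10.82 in organoids, against 11.16 and 11.35 in crypts. The ratio was -0.997 and -1.29 with the organoid in Cy5, and 0.29 and 0.22 with it in Cy3, in mouse 1 and mouse 2. The sign thus followed the dye in both animals, as it did for 7.2% of all tested probes. The mean, in which the dye cancels, was -0.44 ± 0.13 and did not pass (limma adjusted p = 0.114, 95% interval -0.78 to -0.10). With Cy5 alone, where the dye does not cancel, it passed as lower (-1.14, adjusted p = 0.0211), and it was at 0.26 with Cy3 alone. It also passed with the 4 arrays taken as replicates with a dye effect (adjusted p = 0.0318), which counts technical repeats as replicates. Over the alternatives the adjusted p was 0.0211 to 0.9998.

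Other genes of metal handling were taken from 5 lists and described by the brightest probe of each gene. By that probe, 5.25% of all genes tested were higher and 5.36% lower. Among 6 tested further zinc exporters of the Slc30 family, 0 passed, with a median log2 ratio of -0.14. The lowest was Slc30a2, whose product loads zinc into vesicles of secretory cells. Its level was 10.39 and 11.19 in organoids, against 11.67 and 11.68 in crypts (-0.88 ± 0.56, limma adjusted p = 0.0703).

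Among 11 further Slc39 importers, 2 passed as higher and 1 as lower, with a median of 0.02. Slc39a8 encodes ZIP8, which carries zinc, iron and manganese. Its level was 11.23 and 12.14 in organoids, against 9.25 and 9.60 in crypts, with no overlap. It was 4.80-fold higher in organoids (2.26 ± 0.40, limma adjusted p = 0.00409), and a second probe was higher by 1.01 ± 0.50 (adjusted p = 0.0418). One more Slc39a8 probe was too dim to be tested. Slc39a6 was higher by 0.71 ± 0.24 (adjusted p = 0.0473). Slc39a9 was lower, at -0.83 ± 0.10 (adjusted p = 0.0233), while its other probe gave -0.16 ± 0.32 (adjusted p = 0.599). Slc39a14 (ZIP14), the closest relative of Slc39a8, had a level of 10.13 and 9.93 in organoids, against 9.91 and 10.11 in crypts (0.02 ± 0.28, adjusted p = 0.955).

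**Figure D4:**
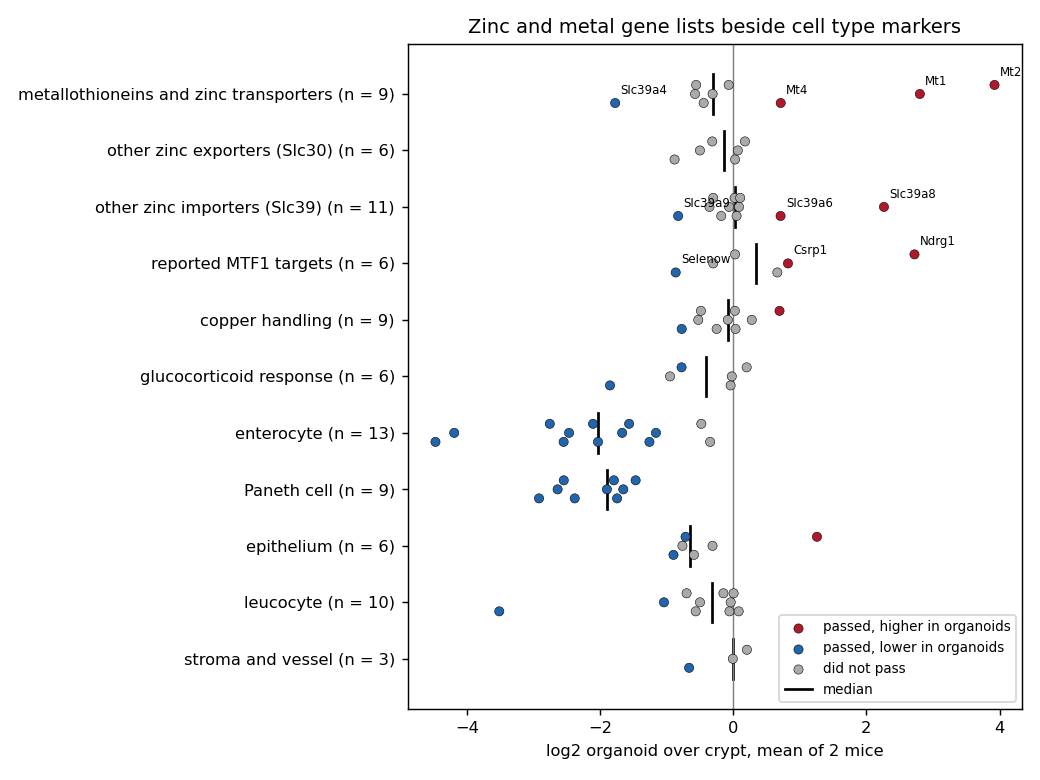
Log2 organoid over crypt (mean of 2 mice) for the 9 genes, 5 lists of related genes and 5 marker lists, 1 point per tested gene by its brightest probe; red passed as higher in organoids, blue as lower, grey did not pass, and the black line is the list's median. Mt1, Mt2, Ndrg1 and Slc39a8 stand furthest to the right in the first 4 rows, and enterocyte and Paneth cell markers lie to the left.

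Of 6 genes reported as MTF1 targets, 2 were higher and 1 lower, against 5.25% and 5.36% of all genes tested. The median was 0.35, with 0.35 in mouse 1 and 0.06 in mouse 2. The list does not separate genes that MTF1 raises from those it lowers, and MTF1 activity was not tested. Ndrg1, a stress-responsive gene, had a level of 16.08 and 15.00 in organoids, against 12.74 and 12.90 in crypts. It was 6.60-fold higher in organoids (2.72 ± 0.88, limma adjusted p = 0.00911), and mouse 1 had the larger ratio. Csrp1, a LIM domain protein gene, was higher by 0.82 ± 0.17 (adjusted p = 0.0267). Selenow, the selenoprotein W gene, was lower at -0.86 ± 0.01 (adjusted p = 0.0194). Gclc, the catalytic subunit of glutathione synthesis, had ratios of 1.27 in mouse 1 and 0.06 in mouse 2 (adjusted p = 0.238). Slc39a10, listed here and among the importers, stood at -0.30 ± 0.14 (adjusted p = 0.244), and Pgf at 0.03 ± 0.06 (adjusted p = 0.924).

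Metallothioneins also bind copper. Of 9 tested copper handling genes, 1 was higher and 1 lower, with a median of -0.08. Sod1, the copper and zinc superoxide dismutase, was higher by 0.70 ± 0.10 on its brightest probe (limma adjusted p = 0.0369). Its other probes gave -0.01 ± 0.54 and -0.10 ± 0.93 (adjusted p = 0.987 and 0.883), so the call rests on 1 probe of 3. Cox17, a copper chaperone of mitochondria, was lower at -0.77 ± 0.27 (adjusted p = 0.0412), while its other probe gave -0.49 ± 0.11 and did not pass (adjusted p = 0.0896).

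Glucocorticoids are a further known inducer of Mt1 and Mt2. Of 6 tested genes that respond to them, 0 were higher and 2 lower, with a median of -0.41. Over all genes tested, 5.25% were higher and 5.36% lower. Sgk1, a kinase gene, had a level of 8.68 and 8.13 in organoids, against 9.82 and 10.69 in crypts (-1.85 ± 1.00, limma adjusted p = 0.0324). Its other probe was too dim to be tested. Klf9, a transcription factor gene, was lower at -0.78 ± 0.23 (adjusted p = 0.037), and on its other probe at -0.84 ± 0.32 (adjusted p = 0.0389). Fkbp5 stood at -0.95 ± 0.73 (adjusted p = 0.0914). Its other probes gave smaller values, -0.42 ± 0.29 and -0.48 ± 0.47 (adjusted p = 0.176 and 0.196). Dusp1, Per1 and Tsc22d3 did not pass either, at 0.20, -0.02 and -0.04. The part of glucocorticoids in the values of Mt1 and Mt2 was not tested.

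Genes whose pattern was nearest were found by Euclidean distance over the 4 array ratios among 15533 other genes. For Mt2 they included Bnip3, a mitophagy receptor gene (distance 1.18), and Aqp8, a water channel gene (1.47). The median distance to Mt2 was 7.86. Nearest to Mt1 were the aldolase gene Aldoc (0.46), the annexin gene Anxa3 (0.49) and the transcription factor gene Atf5 (0.65), against a median of 5.60. Nearest to Slc39a4 were Slc7a9, a subunit of an amino acid transporter (0.14), Gsdmd, a pore-forming protein gene (0.15), and Pepd, a dipeptidase gene (0.16), with a median of 3.62. All 3 had a mean ratio of -1.77, as did Slc39a4, which follows from the choice by distance. Nearest to Slc30a10 were 2310021P13Rik (0.20) and 2 transcripts the files name only by sequence entry (0.13 and 0.13), all above 0 in mouse 1 and below 0 in mouse 2. These signs too follow from the choice by distance. The distances describe 4 arrays of 2 mice and carry no test.

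Leucocyte and stromal markers were checked because crypts can bring such cells along. Of 10 leucocyte genes, 2 were lower (Ccl5 and Cd3g) and 0 higher, and the median log2 ratio of the list was -0.32. Cd3g, Cd8a and Itgam were well above background in 0 of 4 organoid channels and in all 4 crypt channels. Of 9 stromal and vessel genes, 3 were bright enough to be tested and 1 was lower (Acta2), with a median of -0.005. The part of these cells in any value above was not tested. Probes well above background made up 51.5% to 61.7% per array in organoids and 53.8% to 67.2% in crypts, and the correlation across probes between the dye-swapped arrays was 0.818 in mouse 1 and 0.825 in mouse 2. All arrays lay on 1 slide, and 0 member spots were saturated.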

How the data were processed

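Values came from 4 two-colour Agilent arrays of 2 mice, with dyes swapped. Each deposited intensity is a spot's mean signal, or the median background around it, in 1 dye on a linear scale. Per the file headers, the scanner's log10 ratio (Cy5 over Cy3) was background-subtracted and dye-normalized by Feature Extraction 10.2.1.3, while the submitters' processing notes name 9.5.3. The authors' deposited series matrix holds log2 ratios with column medians of 0. The sources used here do not give how they were centred. Both were used as alternatives.

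Background was corrected by normexp (offset 50) and arrays normalized by loess with limma 3.58.1 in R 4.3.3. Outlier-marked spots were left out and spots averaged. A probe was tested if well above background in all 4 organoid or all 4 crypt channels. Ratios were turned by the dye labels and averaged within a mouse. The 2 mouse means were tested against 0 (lmFit, eBayes, two-sided), with Benjamini-Hochberg adjustment over 21916 probes. Levels are channel values after loess and Aquantile. Fits were tested on simulated data.

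The 9 genes and all lists were chosen with earlier results of these data known. The text names every probe of the 9 genes, up to 4 passed genes per related list, and 3 nearest genes for Mt1, Mt2, Slc39a4 and Slc30a10, of which 1 is not reported here. List genes that did not pass, and markers, are examples chosen after their values were seen. Both tissues of a mouse shared its arrays, so the contrast is paired by design. With 2 mice, p-values do not measure the spread between those animals alone. Through 4.29 prior degrees of freedom (prior SD 0.20) they draw largely on the spread over all tested probes. The number of arrays limits the precision. The design text names an RNeasy kit and the labels Trizol, so the RNA kit is not settled.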

Additional observations from a re-analysis of the deposited data

Results flagged for a closer look

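In 3 probes both arrays of mouse 1 were above 0 and both arrays of mouse 2 below 0. For the Slc30a10 probe A_51_P173445 the ratio of mouse 1 exceeded that of mouse 2 by 1.45 on the log2 scale, and for its other probe, A_52_P883557, by 1.40. For the Slc30a1 probe A_51_P250378 the gap was 0.97. Both Slc30a10 probes gave weak signals. The arrays of a mouse are technical repeats, so the difference between the mice was not tested. Of all tested probes, 13.7% had mice of opposite sign on both arrays, whichever mouse was above 0.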

How the results depend on the processing

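Mt1 (ratios of 2.66 to 3.20) and Mt2 (3.46 to 4.39) kept direction and call in all 13 alternatives with a test, and direction without either mouse. Over all probes and the 9 genes' probes, counts changed with median centring (260 higher and 188 lower, with 2 and 0 of the 9 genes' probes), no filter on dim probes (262 and 375, with 2 higher), and arrays with the organoid in Cy3 alone (496 and 544, with 2 higher). Arrays with the organoid in Cy5 alone called 3 of the 9 genes' probes lower (Slc39a4, Mt3 and Slc39a5), and no background correction called 2 (Slc39a4 and Mtf1). Treating the 4 arrays as replicates with a dye effect called 2271 probes higher and 2157 lower, with 4 of the 9 genes' probes lower (those of Slc39a4, Mt3, Slc39a5 and Mtf1). That fit counts technical repeats as replicates, and in the fits on 1 dye orientation the dye does not cancel. The mouse as a replicate block, fitted without a dye effect as chosen after seeing the data, called 1880 higher and 1841 lower, with 2 of the 9 genes' probes lower, Slc39a4 and Mtf1. It changed no other call among the 9 genes. The planned block with a dye effect could not be fitted. Leaving out 1 mouse gave 454 to 566 probes at least 2-fold higher and 519 to 993 lower, with 1 to 2 of the 9 genes' probes lower, and no test.

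Signs turned only in probes that did not pass. Slc30a1 A_51_P250378 gave 0.15 after median centring, 0.0012 with Cy5 alone, and -0.55 to 0.42 without 1 mouse. Slc30a10 A_51_P173445 gave -0.085 with Cy3 alone and -0.70 to 0.75 without 1 mouse, and A_52_P883557 gave -1.01 to 0.39. Slc39a5 gave 0.26 with Cy3 alone. The 3 genes nearest to Slc30a10 gave -1.03 to 0.40, -0.94 to 0.31 and -1.003 to 0.44 without 1 mouse. Median centring turned the medians of the Slc30 exporters (0.08) and copper genes (0.20), and the Slc39 importers' median was -0.05 to -0.01 without 1 mouse. The brightest Slc39a8 probe kept its call in every alternative with a test, and its other probes were not run. Csrp1, Sod1, Cox17, Slc39a6, Slc39a9, Ndrg1, Sgk1, Klf9 and the second metallothionein-1 probe each lost it under at least 1 alternative, with no filter on dim probes among them, and Selenow, Slc7a9, Gsdmd and Pepd under median centring. The causes were not tested.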
